A study of Bos taurus with 21 samples.

Results

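Acute phase genes code for proteins whose amounts in blood or milk change quickly when tissue is inflamed. The 6 genes described here are SAA3, M-SAA3.2, HP, LBP, ORM1 and PTX3, taken by gene symbol from the 13570 gene rows of the milk somatic cell libraries. All 6 symbols were found once in every table. The question was in which single cows these genes were high, as they could be in a local inflammation of the udder.

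Milk somatic cells, the cells shed into milk, were sequenced as total RNA from 21 Holstein cows. The high yielding group (HY) had 9 cows and the low yielding group (LY) had 12 cows. The milk yield of each cow was a normalised index value with no unit given. HY cows had values of 181.118 to 468.053, and LY cows had values of -404.27 to 86.92. Cows were in lactation for 41 to 268 days in HY (median 168) and for 52 to 270 days in LY (median 211.5), and parity, the number of calvings, was 2 to 4 in both groups. No treatment or infection was recorded in the labels, and their ages and udder health were not given.

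Most acute phase proteins are made by the liver and released into blood, and the mammary gland makes some of its own. Serum amyloid A3 is a form made mainly outside the liver, and SAA3 and M-SAA3.2 are closely related genes of this form, M-SAA3.2 being named for its mammary form. HP codes for haptoglobin, which binds free haemoglobin and is stored in neutrophils. LBP codes for the lipopolysaccharide binding protein, which hands bacterial lipopolysaccharide to CD14. ORM1 codes for alpha-1 acid glycoprotein, a plasma protein that binds many small molecules. PTX3 codes for the long pentraxin 3, a soluble pattern recognition protein made by myeloid and stromal cells after cytokine or bacterial signals.

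Each library held between 7878557 and 28541904 counts on genes (HY median 11669815, LY median 12705797). Levels are given as CPM, the counts scaled to library size, after TMM normalisation (TMM CPM), and they are not adjusted for gene length, so levels of different genes are not set against each other. Transcripts of macrophages and neutrophils were found in every cow, with CD68 (a macrophage protein) from 774 to 3415 CPM and CXCR2 (a neutrophil chemokine receptor) from 127 to 3227 CPM. Mammary epithelial transcripts varied far more, the 18 epithelial markers taking from 0.229% to 60.9% of the counts of a cow. HY cows 3262 and 3280 stood apart, with 60.9% and 57.4% of their counts on these markers and TMM factors of 0.460 and 0.498 against 0.749 to 1.48 in the other 19 cows. Results that rest on these cows are given with and without them. Of the 15 liver markers, ALB (albumin) had at most 7 counts in a cow. In cow 3161, which had most HP, 11 of the 15 were at 0, ALB among them, whereas their sum was 125.5 CPM within a range of 16.3 to 257 CPM over the cows. TTR (transthyretin, a carrier of thyroid hormone) made up 118.5 CPM of it, and APOA1 (apolipoprotein A1) was 1.28 CPM. The part of this in the HP value was not tested. In such bulk samples, fewer cells of one type and less RNA per cell cannot be told apart.

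Among the 6 genes, 5 had at least 10 counts in at least 1 cow, and these 5 were counted in all 21 cows. ORM1 was the exception. Its highest count was 7, and it had no count in 9 cows.

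The pair of serum amyloid A3 genes was highest in LY cows. SAA3 was 3.83 CPM in the lowest cow (HY cow 3064), 23.4 in the median cow and 134.7 in the highest (LY cow 2893), and HY cow 3280 came second with 90.6 CPM. In HY its level was 3.83 to 90.6 CPM with a median of 18.1, and in LY it was 5.76 to 134.7 with a median of 27.5. The groups overlapped from 5.76 to 90.6 CPM. M-SAA3.2 was 2.89 CPM in the lowest cow (HY cow 2814), 14.1 in the median cow and 75.9 in the highest (LY cow 3161), with LY cow 2893 second at 48.5 CPM. It ran from 2.89 to 28.7 CPM in HY with a median of 6.51, and from 4.66 to 75.9 in LY with a median of 20.3. Here the 4 highest cows were all LY cows, whereas the low values came from both groups.

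Haptoglobin transcripts stood out in a few cows. HP was 9.62 CPM in the lowest cow (HY cow 3280), 19.8 in the median cow and 228 in the highest (LY cow 3161). The next cows were HY cow 2920 with 139.0 CPM, LY cow 7628 with 111 CPM and LY cow 2893 with 91.7 CPM. The value of cow 3161 rested on 3397 counts, with a 95% Wilson interval of 221 to 236 CPM that covers counting error only. HY cows had 9.62 to 139.0 CPM with a median of 17.0, and LY cows had 10.7 to 228 CPM with a median of 25.0. Only 1 of the 9 HY cows was above 42 CPM, against 5 of the 12 LY cows. This limit was set after the values were seen, just above the next HY cow (3262, 41.8 CPM), and the split was not tested. The mean log2 level of HP differed by -0.656 between HY and LY (exact permutation p = 0.278), so no group difference was shown.

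LBP was spread more widely in HY than in LY. It was 0.773 CPM in the lowest cow (HY cow 3057, 11 counts), 6.31 in the median cow and 50.3 in the highest (HY cow 3262), with HY cow 3280 second at 28.9 CPM. In HY the level was 0.773 to 50.3 CPM with a median of 2.63. In LY it was 1.64 to 12.9 CPM with a median of 7.31. The HY cows thus held both the 2 highest and the 3 lowest values, and the LY cows lay between.

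PTX3 had the widest spread of the 5 genes on the log2 scale. It was 22.6 CPM in the lowest cow (HY cow 3064), 176 in the median cow and 1533 in the highest (HY cow 3235). The next cows were LY cow 7643 with 1259 CPM, HY cow 2920 with 1177 CPM and HY cow 3014 with 705 CPM. HY cows had 22.6 to 1533 CPM with a median of 166, and LY cows had 45.1 to 1259 CPM with a median of 180. The group medians were close, and 3 of the 4 highest cows were HY cows.

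ORM1 was counted in 2 of the 9 HY cows and in 10 of the 12 LY cows. LY cow 3161 had 7 counts, or 0.471 CPM with a 95% Wilson interval of 0.228 to 0.971, and HY cow 2920 had 5 counts, or 0.214 CPM with an interval of 0.0915 to 0.501. In the 9 cows without a count, the upper limit that a count of 0 allows was 0.118 to 0.589 CPM. ORM1 was therefore not detectable above a few counts in any cow, and its differences between cows could not be resolved at this depth.

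The SD of log2(TMM CPM + 0.25) over the 21 cows was 1.32 for SAA3, 1.30 for M-SAA3.2, 1.35 for HP, 1.41 for LBP and 1.53 for PTX3. Among the 10716 genes with at least 10 counts in at least 1 cow, these SDs lay at percentiles 91.1, 90.6, 91.8, 93.4 and 95.6. Each of the 5 genes thus varied more between cows than about 9 in 10 genes.

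**Figure D1:**
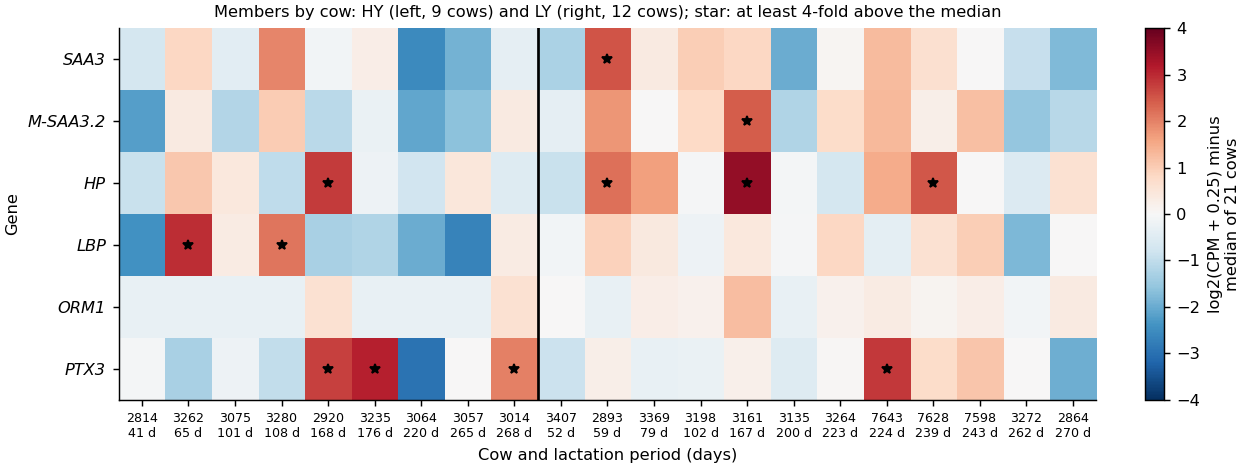
Heat map of the 6 genes (vertical axis) in the 21 cows (horizontal axis, with lactation period in days), ordered by lactation period within HY (left of the line) and LY (right). Colour is log2(TMM CPM + 0.25) minus the median of the 21 cows, and the 12 stars mark levels at least 4-fold above that median, which fall on 9 cows.

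To ask which cows were high, a cow was called high for a gene when log2(TMM CPM + 0.25) was at least 2, or 4-fold, above the median of the 21 cows. This was a description with no test. There were 12 such values, on 9 cows, and 19.8% of the 10716 genes had a high cow, so a high cow alone was common. SAA3 was high in LY cow 2893, and M-SAA3.2 in LY cow 3161. HP was high in 4 cows (2893, 2920, 3161 and 7628), and PTX3 also in 4 cows (2920, 3014, 3235 and 7643). Of these, cows 2920, 7628 and 7643 belong to the 5 cows of the upper mapping rate (share of reads placed on the genome). The part of mapping rate in these values was not tested. LBP was high in HY cows 3262 and 3280, where both calls rested on the TMM factors. Without TMM its levels were 23.1 and 14.4 CPM against a median of 7.36, or 3.14-fold and 1.96-fold. Of all genes, 2.09% were high in at least 4 cows and 7.78% in at least 2.

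High values of different genes were then read cow by cow, and no chance level of their overlap was computed. No cow was high for more than 2 of the genes, and 3 of the 9 cows with a high value were high for 2. These were LY cow 2893 for SAA3 and HP, HY cow 2920 for HP and PTX3, and LY cow 3161 for M-SAA3.2 and HP. In these 3 cows, 4.78%, 0.868% and 0.971% of all 10716 genes were high. Without TMM, HP in cow 2893 was 69.3 CPM or 3.47-fold over the median and PTX3 in cow 3014 was 3.11-fold, so that 8 high values on 6 cows were left and only cows 2920 and 3161 were high for 2 genes. HP, with 4 of the 12 high values, was the gene in common. LBP was high only in cows where none of the other 5 genes passed 4-fold. This rests on the limit chosen, since in cow 3280 SAA3 was 3.86-fold over the median and M-SAA3.2 was 2.04-fold. LY cows 3161 and 7628 were above the median for all 6 genes, and 4 cows (2814, 3064, 3135 and 3407) were above it for none. Without HY cows 3262 and 3280, the same rule gave 10 high values on 6 cows, and cow 2893 was then high for 3 genes. At 2-fold there were 23 high values, LY cow 7643 having 4 of the genes high, and at 8-fold only HP in cow 3161 and PTX3 in cow 3235 remained.

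Other genes of inflammation were then read in the same cows. The lists held 30 other acute phase genes, 22 genes called inducers here and 34 genes of udder inflammation. The inducer list takes in cytokines, receptors and signalling genes, and it includes inhibitors such as IL1RN and SOCS3. In LY cow 2893, 4 of 14 other acute phase genes with at least 10 counts were high, with 4.78% of all genes high in that cow. These were C4BPA, a complement inhibitor, with 7.33 CPM (26.5-fold over the median), CP, the copper carrier ceruloplasmin, with 3.21 CPM (6.47-fold), FGL1, a liver secreted fibrinogen relative, with 4.81 CPM (5.47-fold), and CFB, complement factor B, with 179 CPM (4.55-fold). This cow was the highest of the 21 for each of the 4. The medians of C4BPA, CP and FGL1 were low, so their folds are uncertain. The TMM factor of this cow was 0.756, and its part in these folds was not tested. TNF, the tumour necrosis factor, was 140 CPM or 5.11-fold over the median. Epithelial markers were high too, 6 of 18, among them LALBA (alpha-lactalbumin) at 13.1-fold, and their part in the SAA3 value was not tested.

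HY cow 2920, high for HP and PTX3, was the highest cow for TNFAIP6, a hyaluronan binding protein induced by TNF, with 120 CPM (7.17-fold over the median), and for AOAH, an enzyme that degrades lipopolysaccharide, with 98.3 CPM (4.06-fold). The chemokines CCL20 (19.5 CPM, 5.45-fold) and CXCL3 (547 CPM, 4.39-fold) and the prostaglandin synthase PTGS2 (611 CPM, 4.69-fold) were also high. None of the 18 epithelial markers and none of the 13 neutrophil markers with at least 10 counts was high in this cow. LY cow 3161 was highest for HP and M-SAA3.2, and for ORM1 on only 7 counts. It was also highest for LAP, the lingual antimicrobial peptide, with 78.0 CPM against a median of 6.48. The same held for S100A12, a calcium binding protein of neutrophils, with 5854 CPM (2.54-fold). C4BPA in this cow was 4.03 CPM (14.6-fold), and CSF3, the growth factor of neutrophils, was 6.18 CPM (7.35-fold). No inducer was high in cow 3161, where TNF was 3.15-fold over the median, and no epithelial marker was high.

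The 4 cows with most PTX3 had the 4 highest summed levels of the 22 inducers, with 49888 CPM in cow 7643, 37313 in cow 3014, 27395 in cow 3235 and 17686 in cow 2920. LY cow 7643 had 8 of 22 inducers high, with 3.7% of all 10716 genes high in that cow, and was the highest cow for TNF with 871 CPM (31.7-fold over the median), IL1A with 1404 CPM (22.1-fold), SOCS3, an inhibitor of cytokine signalling, with 387 CPM (18.9-fold) and IL1B with 12823 CPM (17.8-fold). In the same cow SAA3 was 56.4 CPM, M-SAA3.2 34.9 CPM and HP 55.4 CPM, all above the median and under 4-fold, and LBP was 4.76 CPM, below it. HY cow 3014, with 0.999% of all genes high, had 4 of 22 inducers high, IL1B reaching 3909 CPM, and 7 of 13 neutrophil markers, CXCR2 reaching 3227 CPM (5.04-fold). HY cow 3235, with 1.11% of all genes high, had 3 inducers high, TNF being 126 CPM (4.59-fold), and CXCL6, a neutrophil chemokine, was 7134 CPM (8.60-fold). In HY cow 2920 no inducer passed 4-fold, the nearest being OSM (oncostatin M) at 3.31-fold. SAA3 and M-SAA3.2 passed 4-fold in none of these 4 cows.

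In HY cows 3262 and 3280, high for LBP, 13 of 18 epithelial markers were high in each cow and no inducer was, with 4.65% and 6.26% of all genes high, the latter the highest share of the 21 cows. Of 14 other acute phase genes, 3 were high in cow 3262, such as SERPING1 (29.9 CPM, 11.1-fold), and 1 in cow 3280. LALBA was 93705 and 100370 CPM, or 30.7-fold and 32.9-fold over the median, and MUC1, an epithelial surface mucin, was 848 and 593 CPM, or 33.8-fold and 23.7-fold. In the same cows LPO (lactoperoxidase, an antibacterial milk enzyme) was 1158 and 602 CPM, the 2 highest values of the 21 cows. Division by their low TMM factors scaled the values of these cows up, and before TMM the LBP of cow 3262 was 23.1 CPM.

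LY cow 7628, high for HP, had none of 14 other acute phase genes, 22 inducers and 33 udder inflammation genes high, with 0.271% of all genes high. Conversely, LY cow 7598, high for none of the 6 genes, had 4 of 14 acute phase genes and 7 of 33 udder inflammation genes high, with 3.14% of all genes high.

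The co-variation of the genes over the 21 cows was tested by permutation (100000 resamples) for the 10 pairs of the 5 counted genes and for each gene with 5 marker lists, and p was adjusted over these 35 relations. SAA3 and M-SAA3.2 rose together, with Pearson r = 0.805 (permutation p = 1e-05, the smallest that the resamples can give, adjusted p = 0.000175) and Spearman rho = 0.839 (permutation p = 1e-05, adjusted p = 0.00035). When the 2 cows most distant from the SAA3 median were dropped r was 0.743, within the 16 cows of the lower mapping rate it was 0.814, and without cows 3262 and 3280 it was 0.802. Reads that fit both genes were dropped in the counting, so how the remaining reads were split between such similar genes is uncertain.

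LBP followed M-SAA3.2 (r = 0.679, permutation p = 0.0006, adjusted p = 0.00525, rho = 0.691, permutation p = 0.00092, adjusted p = 0.00805) and SAA3 (r = 0.596, permutation p = 0.0044, adjusted p = 0.0219, rho = 0.588, permutation p = 0.00583, adjusted p = 0.034). Without the 2 farthest cows r was 0.671 and 0.538, and in the 16 cows of the lower mapping rate it was 0.679 and 0.639. Without cows 3262 and 3280 r was 0.737 (permutation, adjusted p = 0.00467) and 0.524 (permutation, adjusted p = 0.0678). Without TMM neither pair passed by r, with r = 0.543 and r = 0.383, while M-SAA3.2 passed by rho (0.574, permutation, adjusted p = 0.043). HP passed with no other gene of the set. Its r was 0.409 with SAA3, 0.415 with M-SAA3.2, 0.297 with PTX3 and 0.175 with LBP. In the 16 cows of the lower mapping rate these were 0.351, 0.508, 0.015 and 0.245. PTX3 passed with none either, r being 0.368 with SAA3 and -0.126 with LBP. SAA3 and PTX3, without cows 3262 and 3280, had r = 0.537 (permutation, adjusted p = 0.0634) and rho = 0.586 (permutation, adjusted p = 0.0471), so that they passed by rho.

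LBP rose with the summed epithelial markers, with r = 0.812 (permutation p = 1e-05, adjusted p = 0.000175) and rho = 0.816 (permutation p = 2e-05, adjusted p = 0.00035). The r was 0.764 without the 2 farthest cows, 0.854 in the 16 cows of the lower mapping rate and 0.754 without cows 3262 and 3280. With the 11 markers that are not caseins or whey proteins, such as keratins and MUC1, r was 0.831 (permutation p = 1e-05) and rho was 0.857 (permutation p = 1e-05), an alternative chosen after the data were seen. In that alternative r was 0.804 without the 2 farthest cows, 0.863 in the 16 cows and 0.753 without cows 3262 and 3280. SAA3 and M-SAA3.2 had r = 0.226 and r = 0.297 with the full epithelial list, and neither passed. With the 11 markers r was 0.447 (permutation p = 0.0417) for SAA3 and 0.387 (permutation p = 0.0841) for M-SAA3.2, before any adjustment, and 0.286 and 0.331 without cows 3262 and 3280.

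PTX3 rose with the summed neutrophil markers, with r = 0.605 (permutation p = 0.00361, adjusted p = 0.0211) and rho = 0.601 (permutation p = 0.00464, adjusted p = 0.0325). The r was 0.466 without the 2 farthest cows, 0.731 in the 16 cows of the lower mapping rate and 0.643 without cows 3262 and 3280. HP, a protein of neutrophil granules, had r = 0.241 with the same list, which did not pass. The summed B cell markers fell as SAA3 (r = -0.677, permutation p = 0.00058, adjusted p = 0.00525, rho = -0.804, permutation p = 6e-05, adjusted p = 0.0007), M-SAA3.2 (r = -0.575, permutation p = 0.005, adjusted p = 0.0219, rho = -0.571, permutation p = 0.00727, adjusted p = 0.0364) and LBP (r = -0.653, permutation p = 0.00137, adjusted p = 0.00959, rho = -0.523, permutation p = 0.0156, adjusted p = 0.0682) rose. These r values were -0.669, -0.529 and -0.698 without the 2 farthest cows, and -0.661, -0.552 and -0.645 in the 16 cows. The B cell sum rested on 6 genes and was lowest in cow 3280 at 8.25 CPM, where MS4A1, the CD20 antigen of B cells, was at 0. Without TMM the first was r = -0.542 (permutation, adjusted p = 0.0545) and rho = -0.662 (permutation, adjusted p = 0.0133), passing by rho, and the second was r = -0.365 and did not pass. HP, without cows 3262 and 3280, passed with the B cell markers by rho (-0.605, permutation, adjusted p = 0.0425) and not by r (-0.54). No relation with the macrophage or T cell markers passed. The macrophage, neutrophil and B cell sums did not follow their lists as a whole in every cow, so no conclusion on cell content is drawn. Cow 3075 had the highest macrophage sum, with its median marker at -0.16 as log2 over the median of the cows. Cow 2814, with its median macrophage marker at 1.25, ranked 16 by that sum. By the neutrophil sum cow 3262 ranked 7 with its median marker at -0.89, and cow 7643 ranked 14 with its median marker at 0.55. By the B cell sum cow 3014 ranked 7 with its median marker at -0.67, and cow 3161 ranked 12 with its median marker at 0.79.

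**Figure D2:**
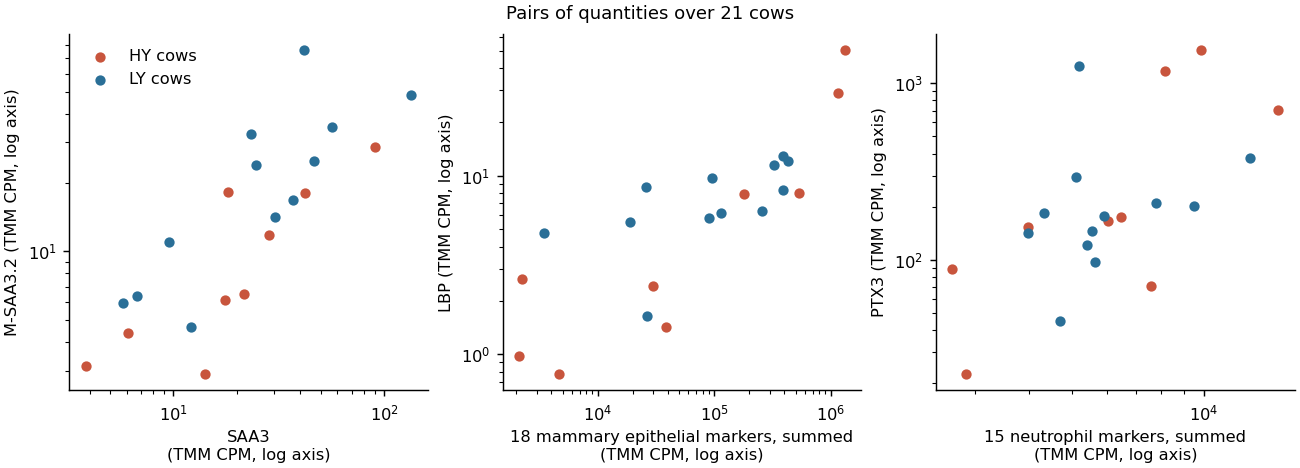
Scatter plots over 21 cows (red, HY; blue, LY; all axes TMM CPM on a log scale) of M-SAA3.2 against SAA3, of LBP against the sum of 18 mammary epithelial markers and of PTX3 against the sum of 15 neutrophil markers. Points run from lower left to upper right in each panel, with r of 0.805, 0.812 and 0.605, and cows 3262 and 3280 are the upper right points of the middle panel.

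The genes whose levels were most like each gene were ranked by Spearman rho over the 21 cows, as a description, among 9367 genes with at least 10 counts in at least 11 cows. M-SAA3.2 was the nearest gene to SAA3 (rho = 0.839), followed by LOC504773 (0.806), ING1 (0.799), AK1 (0.791) and NAPRT1 (0.791). Those nearest to M-SAA3.2 were C17H22orf39 (0.848), LY6G6E (0.843), SAA3 (0.839), FAM110A (0.808) and CYP11A1 (0.804). For LBP they were RAB25, a small GTPase of epithelial cells (0.944), PCDH1 (0.936), ATP6V1C2 (0.934), CCDC85C (0.929) and ERBB3 (0.927). For PTX3 they were ZC3H12A, an RNase that degrades inflammatory transcripts (0.936), ETS2 (0.936), CDA (0.931), IL1RN, the antagonist of interleukin 1 (0.922) and RHOH (0.919). HP had no such close neighbour, the nearest being BACE2 (0.625), TMEM37 (0.609), PEBP4 (0.601), RHEBL1 (0.596) and RYR1 (0.582). For ORM1, with at most 7 counts, they were F12 (0.672), PHKG2 (0.652), PTPRR (0.642), TXK (0.635) and ART5 (0.633).

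HY and LY were then compared with the quasi-likelihood test of edgeR over 12333 genes counted in at least 1 cow. None of the 6 genes passed an adjusted p of 0.05, and 0.0% of all genes did, 580 genes or 4.7% having an unadjusted p under 0.05. Of the 6 genes 1 was among these. M-SAA3.2 averaged 11.1 ± 8.87 CPM in the HY cows and 24.9 ± 20.9 CPM in the LY cows (SD, n = 9 and 12), a log2 difference of -1.18 (SE 0.50, edgeR unadjusted p = 0.0266, adjusted p = 0.999). The exact permutation test of the mean log2(TMM CPM + 0.25) gave a difference of -1.09 (p = 0.0544, two-sided). A difference in M-SAA3.2 was thus not shown after adjustment over all genes.

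SAA3 was 26.9 ± 26.5 CPM in HY and 35.7 ± 35.2 CPM in LY (SD, n = 9 and 12), with a log2 difference of -0.41 (SE 0.53, edgeR unadjusted p = 0.446). For HP the means were 33.0 ± 41.1 and 56.1 ± 63.6 CPM (SD), with a log2 difference of -0.76 (SE 0.58, edgeR unadjusted p = 0.202). Without HY cow 2920 this was -1.50, without LY cow 3161 it was -0.29, and in the 16 cows of the lower mapping rate it was -1.62 (edgeR unadjusted p = 0.00733, adjusted p = 1.0). PTX3 means were 455 ± 555 and 271 ± 323 CPM (SD), with a log2 difference of 0.75 (SE 0.62, edgeR unadjusted p = 0.239). ORM1, at a few counts, had a log2 difference of -0.99 (SE 0.80, edgeR unadjusted p = 0.229). Single cows moved these differences, SAA3 being -0.93 without cow 3280 and -0.02 without cow 2893, PTX3 being 0.24 without cow 3235 and 1.36 without cow 7643, and ORM1 being -1.95 without cow 2920 and -0.52 without cow 3161.

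The sign of the LBP difference depended on the scale and on a pair of cows. Means were 11.5 ± 17.0 CPM in HY and 7.77 ± 3.35 CPM in LY (SD, n = 9 and 12), a log2 difference of 0.56 in edgeR (SE 0.59, unadjusted p = 0.355). The mean log2(TMM CPM + 0.25) was 2.29 ± 2.00 in HY and 2.85 ± 0.77 in LY (SD), a difference of -0.56 (exact permutation p = 0.382, two-sided). Without cow 3262 the edgeR difference was -0.23. Without cows 3262 and 3280, an alternative added after the data were seen, the differences were -1.14 for LBP (edgeR unadjusted p = 0.0238), -1.15 for SAA3 (edgeR unadjusted p = 0.0412) and -1.68 for M-SAA3.2 (edgeR unadjusted p = 0.00421), each with an adjusted p of 0.845. In that setting 710 of all genes had an unadjusted p under 0.05.

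**Figure D3:**
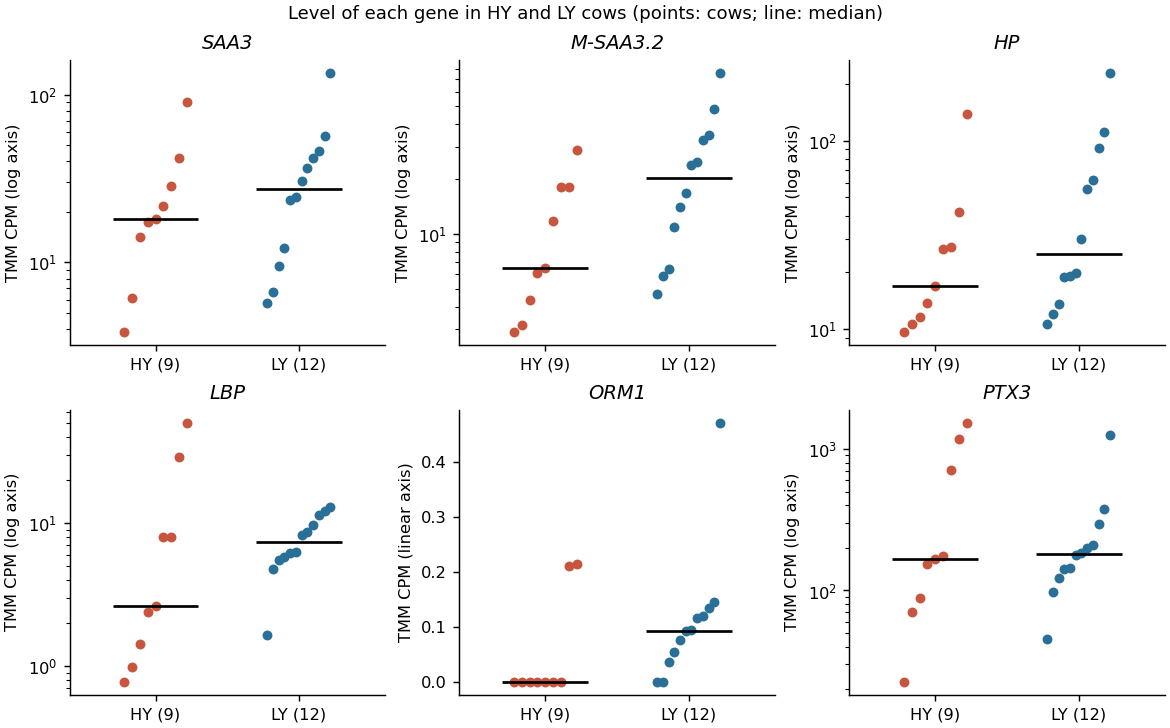
Level of each of the 6 genes (TMM CPM, log axis except for ORM1, which has a linear axis) in HY (9 cows) and LY (12 cows); points are cows and the line is the median. The groups overlap for every gene, and the HY cows hold the 2 highest and the 3 lowest LBP values.

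Other genes of the same pathways gave few differences between HY and LY. None of 24 tested acute phase genes outside the set passed the adjusted p, and 4 had an unadjusted p under 0.05, with negative differences, against 4.7% of all genes. These were C4BPA (-2.31 on the log2 scale), CRP, the C-reactive protein (-2.25), CP (-1.43) and SERPINA3-8 (-3.25). Only 14 of the 24 had at least 10 counts in a cow. CRP and SERPINA3-8 were not among these 14, so the size of their differences is uncertain. Of 22 inducers none reached an unadjusted p of 0.05, and of 34 udder inflammation genes 1 did with a positive and 4 with a negative difference, LAP (-1.93) and CSF3 (-2.87) among the latter. The median log2 difference was -0.15 for the acute phase list and 0.15 for the inducers, against 0.02 over all genes.

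In the regression of milk yield on log2(TMM CPM + 0.25), none of the 6 genes passed the adjusted p of 0.1, as 0.0% of all genes did, and none had an unadjusted p under 0.05, against 307 of 12333 genes or 2.49%. The slope nearest to it was that of M-SAA3.2, with -79.2 units of milk yield per log2 unit (SE 42.8, unadjusted p = 0.0796). Slopes of the others were -46.2 for SAA3, -40.2 for HP, -56.7 for LBP, -131 for ORM1 and 14.4 for PTX3, each smaller than 1.5 times its SE. Without cows 3262 and 3280, the slope of LBP was -139 (SE 44.5, unadjusted p = 0.00633, adjusted p = 0.679) and that of M-SAA3.2 was -95.5 (SE 42.9, unadjusted p = 0.0399, adjusted p = 0.679), while 865 of all genes then had an unadjusted p under 0.05.

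Lactation period was tested in edgeR as the log2 slope per 100 days. None of the 6 genes passed the adjusted p of 0.05, against 3 of 12333 genes or 0.0243%, and 2 of the 6 had an unadjusted p under 0.05, against 2756 genes or 22.3%. SAA3 had a slope of -0.79 (SE 0.31, unadjusted p = 0.0177, adjusted p = 0.145) and LBP a slope of -0.73 (SE 0.35, unadjusted p = 0.0449, adjusted p = 0.212). Leaving out each cow in turn gave -0.92 to -0.46 for SAA3 and -0.87 to -0.32 for LBP. Without cows 3262 and 3280 the slope was -0.67 for SAA3 and -0.04 for LBP. PTX3 had a slope of 0.77 (SE 0.47, unadjusted p = 0.114), M-SAA3.2 of -0.23, HP of -0.12 and ORM1 of 0.54.

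In the 8 cows up to day 108, SAA3 was 9.50 to 134.7 CPM with a median of 36.3, and in the 13 cows from day 167 on it was 3.83 to 56.4 CPM with a median of 21.7. PTX3 was 70.9 to 209 CPM in the earlier cows with a median of 144, and 22.6 to 1533 CPM in the later cows with a median of 201. The 4 cows high for PTX3 were thus all later than day 167, and both cows high for LBP were in the earlier set. This split, made at a gap in the lactation periods after the data were seen, was not tested. Of the 18 epithelial markers none passed the adjusted p with lactation period, and 5 had an unadjusted p under 0.05 with negative slopes, such as MUC1 (-1.68 per 100 days) and LALBA (-1.43), where 22.3% of all genes had such a p. Their part in the LBP slope was not tested.

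**Figure D4:**
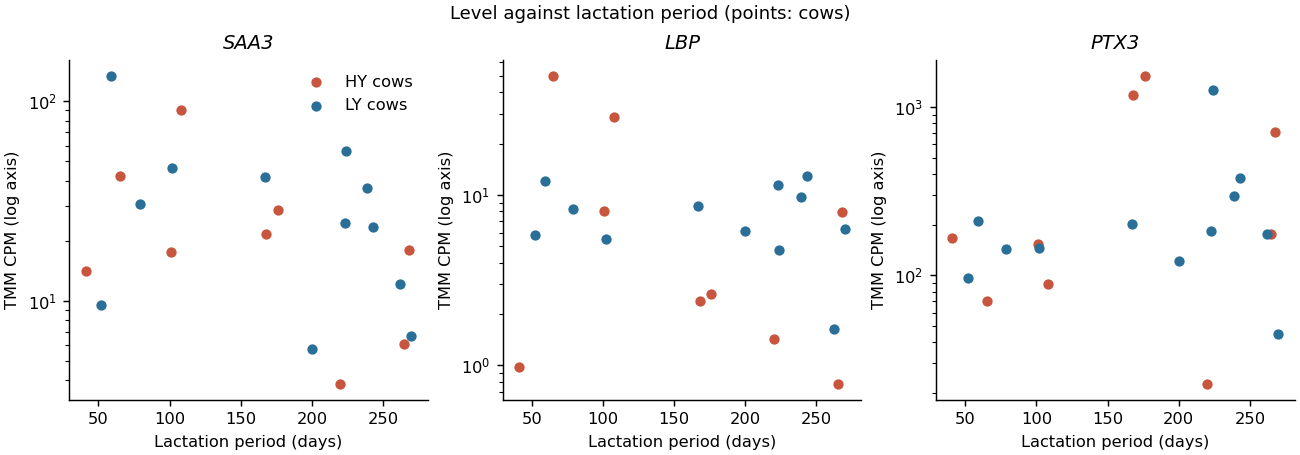
Level (TMM CPM, log axis) of SAA3, LBP and PTX3 against lactation period in days, with each point a cow (red, HY; blue, LY). SAA3 and LBP reach their highest values, 134.7 and 50.3 CPM, before day 108, and PTX3 reaches 1533 CPM at day 176.

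Of the 22 inducers, 10 had an unadjusted p under 0.05 with lactation period, against 22.3% of all genes, all with positive slopes, and none passed the adjusted p in edgeR. The inhibitors IL1RN and SOCS3 were among these 10. The slopes per 100 days were 1.67 for IL1A (SE 0.41, adjusted p = 0.0639), 0.99 for IL1B (SE 0.39, adjusted p = 0.153), 1.21 for OSM (SE 0.43, adjusted p = 0.113) and 0.83 for NFKBIZ, a nuclear regulator of NF-kappaB target genes (SE 0.26, adjusted p = 0.0909). The median slope of the list was 0.59, against 0.02 over all genes. The shares of the next 3 lists were near that 22.3%. Among 34 udder inflammation genes 7 had positive slopes at an unadjusted p under 0.05 and none a negative one, with IL8, the neutrophil chemokine, at 1.56 (SE 0.40, adjusted p = 0.0639) and CXCL2 at 1.17 (SE 0.40, adjusted p = 0.109). At the same threshold 4 of 24 other acute phase genes had positive slopes, with TNFAIP6 at 1.07, and 2 negative ones, SERPINA3-8 at -2.65 and SERPING1, the C1 inhibitor, at -0.76. SERPINA3-8 had under 10 counts in every cow. Of 17 genes of lipopolysaccharide and lipopeptide sensing, 2 had positive slopes (TRAF6 and TLR4) and 2 negative ones (LPO and LTF). Of 13 receptors and binding partners none reached an unadjusted p of 0.05. The slopes of SAA3, M-SAA3.2, HP and LBP had the opposite sign to those of the 10 inducers, and those of PTX3 (0.77) and ORM1 (0.54) the same sign. None of these 6 slopes passed the adjusted p, and that of LBP shrank without cows 3262 and 3280, as given above. Those of M-SAA3.2 (-0.23, SE 0.36) and HP (-0.12, SE 0.44) were smaller than their SE. Both turned sign when single cows were left out. The 10 inducers were taken by their unadjusted p, and the contrast of signs was not tested.

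Parity gave no call. Cows in parity 2 numbered 14 and later cows 7, and none of the 6 genes reached an unadjusted p of 0.05 in edgeR, against 706 of all genes or 5.72% and 0.0% at the adjusted p. For HP, later minus second parity was 0.59 on the log2 scale in edgeR (SE 0.59, unadjusted p = 0.331), and -0.37 in the 16 cows of the lower mapping rate. The difference in mean log2(TMM CPM + 0.25) was 0.64 for HP and 0.77 for PTX3.

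The ratio of SAA3 to M-SAA3.2 counts within a cow does not depend on depth, and it was looked at after the data were seen. Counts are not adjusted for gene length, and reads that fit both genes were dropped. A ratio of 1 therefore need not mean equal levels, and the ratio is read only between cows. It was 0.551 in the lowest cow (LY cow 3161), 1.87 in the median cow and 4.90 in the highest (HY cow 2814), and it was above 1 in 16 of 21 cows. In HY it was 0.994 to 4.90 with a median of 2.41, and in LY it was 0.551 to 2.77 with a median of 1.33. The mean log2 ratio was 1.16 ± 0.76 in HY and 0.44 ± 0.78 in LY (SD, n = 9 and 12), a difference of 0.72 (exact permutation p = 0.0468, two-sided, adjusted over 3 tests p = 0.0703). With lactation period the log2 ratio had r = -0.459 (permutation p = 0.0367, adjusted over 3 tests p = 0.0703) and rho = -0.392 (permutation p = 0.0796). Without cows 2814 and 3407, the 2 farthest from the median lactation period, r was -0.515. In the 16 cows of the lower mapping rate r was -0.768, and without cows 3262 and 3280 it was -0.416. Within HY r was -0.85 and within LY it was -0.169, and the difference between these was not tested. With milk yield it was r = 0.255 (permutation p = 0.264) and rho = 0.338 (permutation p = 0.135). None of the 3 tests passed after adjustment.

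**Figure D5:**
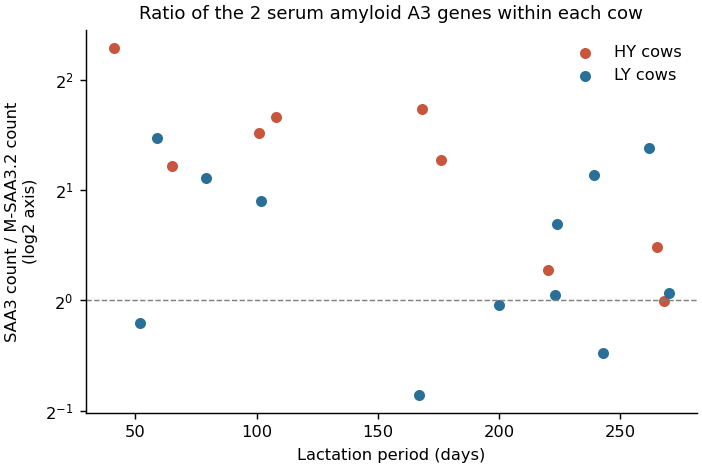
Ratio of SAA3 to M-SAA3.2 counts in each cow (log2 axis) against lactation period in days (red, HY; blue, LY; dashed line, ratio of 1). The ratio runs from 0.551 to 4.90 and lies above 1 in 16 cows. Counts are not adjusted for gene length, so the dashed line need not mark equal levels.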

How the data were processed

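RNA-seq of milk somatic cells of 21 cows (9 HY, 12 LY) was analysed from 1 count table per cow. The authors mapped trimmed reads to the bosTau7 genome with TopHat2 and Bowtie2 and deposited raw counts per gene made with HTSeq, which drops reads that fit several places, 21.6% to 27.5% of the reads in the tables. A row without a gene name (0.036% to 0.151%) was left out. The range and group medians of the total counts are given in the report, and the totals limit the precision of genes with few counts. The cows are separate animals, and no pair of libraries was alike within sampling noise (lowest chi-square per degree of freedom 35.3).

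R 4.3.3 with edgeR 4.0.16 (TMM and quasi-likelihood test on 12333 genes counted in at least 1 cow, Benjamini-Hochberg adjustment over all of them), DESeq2 1.42.0 as an alternative, limma 3.58.1, MASS, numpy 2.4.6 and scipy 1.17.1 were used. CPM were transformed as log2(TMM CPM + 0.25), which understates changes of genes with few counts. Milk yield was the response in ordinary regression, and robust regression was an alternative. Single values were tested by exact permutation over 293930 ways to choose the HY cows. Correlations used 100000 resamples. Scripts were tested on simulated data. The 16 cows of the lower mapping rate are those under the gap in the mapping rates. The other 5 (HY cow 2920 and LY cows 3272, 3407, 7628 and 7643) were too few to test.

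The genes and lists were chosen with earlier results of these data known. All 6 genes were named, with the 5 most alike genes of each and, from each list, counts and the 4 genes of highest fold in high cows; other list genes were named after their values were seen. Alternatives were another normalisation, filters, tools, covariates, pseudocount and fold, the 16 cows, and leaving out each cow.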

Additional observations from a re-analysis of the deposited data

Results flagged for a closer look

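Within HY, 2 values were flagged by Dixon's test, and 12 ends were read (highest and lowest of 6 genes). The test was run on CPM and not on log2 values. Its rate of about 1 in 20 groups flagged by chance holds for values with a normal distribution, which was not checked. SAA3 in cow 3280 was 90.6 CPM, with the gap to the next cow taking 0.559 of the whole range against a critical value of 0.493. HP in cow 2920 was 139.0 CPM, with a gap of 0.752 of the range. As log2 over the median of the 21 cows, HP was 2.794 in cow 2920, 1.065 in the next HY cow (3262) and -1.024 in the lowest (3280). SAA3 was 1.939 in cow 3280, 0.8387 in the next HY cow (3262) and -2.539 in the lowest (3064). Dixon's test was not run on this scale. Without TMM, an alternative added after the data were seen, the SAA3 gap in cow 3280 was 0.413 of the range and no longer passed, while that of HP was 0.827. LY, with 12 cows, was not tested in this way. Cow 3280 had a TMM factor of 0.498 and 57.4% of its counts on epithelial markers, and the part of these in the SAA3 value was not tested. In cow 2920 the epithelial markers took 3.61% of counts.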

How the results depend on the processing

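The calls of the 6 genes did not change, since none passed an adjusted p in edgeR, DESeq2 or regression under any alternative, leaving out each cow included. Over all genes, 0 were called between HY and LY with edgeR and 1 with the DESeq2 Wald test. The genes with an unadjusted p under 0.05 numbered 367 with DESeq2, 169 (1.8%) among genes kept by filterByExpr and 93 (1.3%) among those counted at least 10 times in all cows. For lactation period, 865 genes were called with DESeq2, and 0 with either filter, in the 16 cows of the lower mapping rate or with group as covariate. Leaving out each cow gave 0 to 428 calls (358 without cow 2814, 257 without cow 3057 and 428 without cow 3407), and without cows 3262 and 3280 the genes with an unadjusted p under 0.05 fell to 1621. For parity these numbered 398 and 357 with the filters, 457 with covariates and 476 to 1127 on leaving out each cow. For milk yield they numbered 124 under the stricter filter, 865 without cows 3262 and 3280, and 265 to 489 on leaving out each cow. High values numbered 23 at 2-fold, with 7 cows high for at least 2 genes, and 2 at 8-fold, on 2 cows with 0 high for 2, and 8 on 6 cows without TMM, with 2 cows high for 2, and 11 on 8 cows with a pseudocount of 1.

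The sign turned, with no call on either side, in 40 of 1015 alternative values. LBP between HY and LY was -1.14 without cows 3262 and 3280, and -0.23 to 0.72 on leaving out each cow. For parity, M-SAA3.2 was 0.042 with DESeq2 size factors, 0.016 with 10 counts in every cow, 0.045 with DESeq2, 0.15 in the 16 cows, 0.0098 with covariates and 0.020 without cows 3262 and 3280, HP was -0.37 in the 16 cows, and LBP was 0.29 with covariates and 0.46 without cows 3262 and 3280. On leaving out each cow, parity differences were -0.51 to 0.60 for SAA3, -0.43 to 0.35 for M-SAA3.2, -0.57 to 0.072 for LBP and -0.059 to 0.96 for PTX3, and lactation slopes were -0.39 to 0.047 for M-SAA3.2 and -0.33 to 0.098 for HP. The PTX3 slope of milk yield was -5.34 in the 16 cows and -2.003 to 56.5 on leaving out each cow. Without TMM, 5 relations passed by r against 8. PTX3 then passed with the epithelial markers (r = -0.576), and r turned for SAA3 with neutrophil (-0.0865), macrophage (-0.169) and epithelial markers (-0.0317), HP with T cell (0.212), B cell (0.0517) and epithelial markers (-0.149), and LBP with neutrophil (-0.363) and macrophage markers (-0.21). Without cows 3262 and 3280, LBP no longer passed with SAA3 (0.524) or B cell markers (-0.537), and r turned for PTX3 with LBP (0.0751), T cell (-0.0387) and B cell markers (-0.185). The cause of these changes was not tested. No paired analysis was possible because each cow belongs to 1 group and the groups share no replicate number. Depth limits ORM1, with at most 7 counts.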
